A study of Sus scrofa with 10 samples.

Results

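Genes that make, move and clear cholesterol were followed through pig testis and 2 kinds of testicular graft. The set is a list of 32 gene names, taken as the rows of the count table that carry exactly one of these names, and 29 of them were found among the 27376 rows. They comprise 17 enzymes of cholesterol synthesis, 4 genes of SREBP control, 4 genes of the lysosome and of sterol transport inside the cell, and 4 genes of efflux and storage. IDI1, CYP51A1 and INSIG2 had no row under these names. A row with the name INSIG2 and a suffix was present but was not used, because RefSeq gives that symbol to more than a single gene. The row CYP51, which the RefSeq table of the build gives as a synonym of CYP51A1, is described beside the enzymes and left out of their counts. RNA was counted in 10 libraries: 2 came from control testis, 4 from grafts labelled FO and 4 from grafts labelled GF. The FO implants held only testicular fibroblasts, and the GF implants held germ cells and testicular fibroblasts together, all primary pig cells. Both were injected with Matrigel, a basement membrane gel, under the skin of a mouse of the kind that the labels call SKID, and were taken after 6 months. The control libraries were not grafted tissue by their titles, which carry the code 5D. The labels do not explain that code, so the age of the control tissue is not known here and cannot be told apart from the effect of grafting. The mouse host supplies its own vessels, blood and stroma, and the counts are on pig genes. How reads from mouse cells were handled is not stated, so a mouse share in the graft counts cannot be told apart.

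Cells build cholesterol from acetyl-CoA. Mevalonate is formed and phosphorylated first, isoprenoid units are joined into squalene, squalene is closed into lanosterol, and a series of enzymes in the endoplasmic reticulum trims lanosterol to cholesterol. The transcription factor SREBP2 drives most of these genes when membrane sterol is low. SCAP escorts it to the Golgi for activation, and the INSIG proteins hold it back when sterol is plentiful. Cholesterol from lipoproteins is freed in the lysosome by LIPA and handed out by NPC2 and NPC1, while ABCA1 and ABCG1 export it to lipoproteins and SOAT1 esterifies it for storage. In the testis, Leydig cells turn cholesterol into androgens, and germ cells and Sertoli cells also handle large amounts of sterol.

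Total counts per library were 2915534 to 7013911. The smallest libraries were GF 3 (2915534) and GF 4 (2948156), in which tRNA genes also took more of the counts (0.183% and 0.75%) than elsewhere (up to 0.0601%). They stood apart for several of the genes below, and many results are therefore also given without them. FO 1 and GF 3 carried skeletal muscle transcripts, with 6 marker genes summing to 504 and 123 CPM, and at most 5.51 CPM in the other grafts. Levels are counts scaled to a library of 1000000 by TMM (CPM). Means stand with their SD (control n = 2, FO and GF n = 4), and log2 fold changes with their SE. A gene was called where the adjusted p of edgeR's quasi-likelihood test, taken over all tested genes, was under 0.05. Whether replicates are separate animals is not stated in the labels, and the p-values therefore reflect the spread of these samples only, which may be technical. In tissue of mixed cells, fewer cells of a type and less RNA per cell cannot be told apart.

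All 29 genes passed the filter on low counts in each comparison. Against control testis, FO grafts had 16 of the 29 lower and 2 higher, while 10.6% of all tested genes were called lower and 8.12% higher in that comparison. GF grafts had 10 of the 29 lower and 2 higher than control testis, where 11.8% of all tested genes were called lower and 14.0% higher. Between the grafts, 6 of the 29 were higher and 1 was lower in GF than in FO, where 17.6% of all tested genes were called higher and 13.0% lower. The share higher in GF was thus close to that of all genes, and the genes called, not their number, are what follows. The median log2 fold change of the 29 was -1.20 for FO against control and -0.52 for GF against control, beside -0.04 and 0.03 for all genes, and 0.06 for GF against FO beside -0.02. The 2 comparisons with control share the control libraries, and GF against FO shares its libraries with both.

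**Figure D1:**
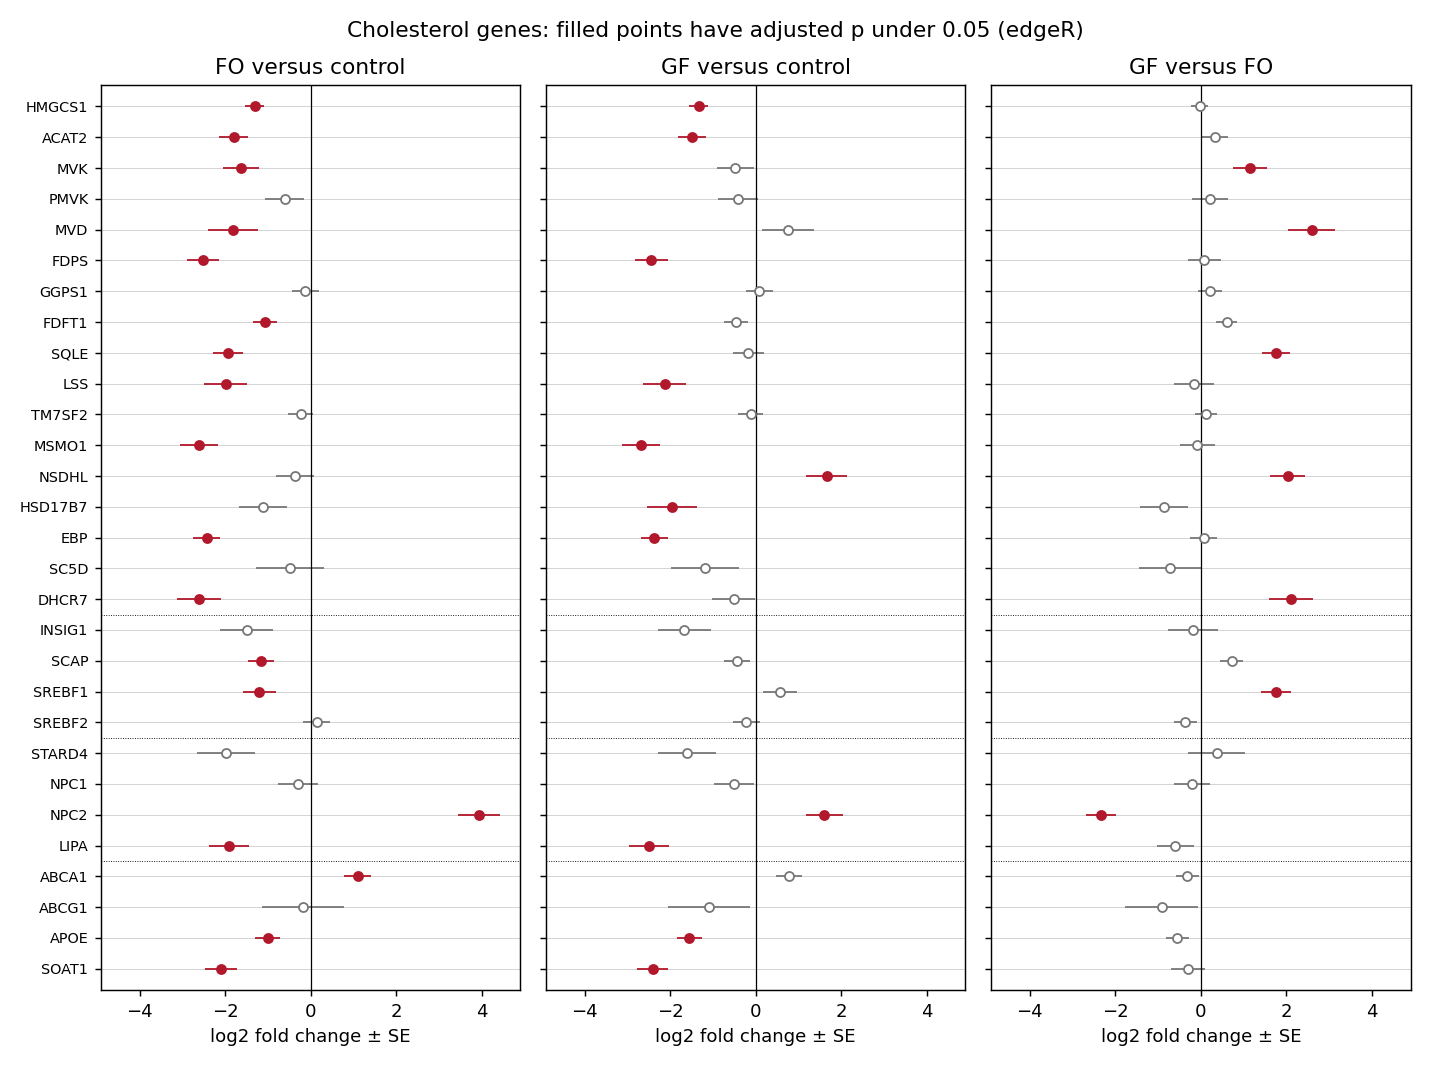
Log2 fold change (x axis, point ± SE) of each of the 29 genes (y axis, grouped by role between dotted lines) in the 3 comparisons. Filled points have an adjusted p under 0.05. In FO against control 16 filled points lie left of 0 and 2 right of it, and in GF against FO 6 lie right of 0 and 1, NPC2, left of it.

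**Figure D2:**
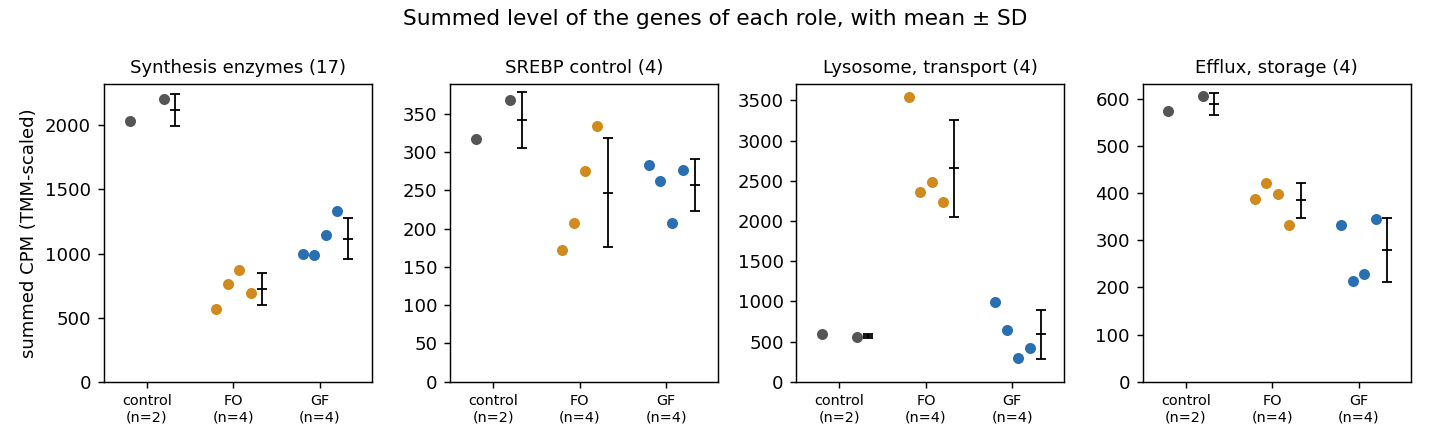
Summed CPM (y axis) of the genes of each role in each library (points), with mean ± SD, for control testis, FO and GF grafts. The 17 synthesis enzymes summed to 2033 and 2206 CPM in control testis, 571 to 873 in FO and 991 to 1329 in GF, so the 3 groups did not overlap. Between the grafts 5 of the 17 were called higher in GF and 12 were not called. Mean CPM in FO and GF was 52.8 and 179 for SQLE, 35.1 and 143 for NSDHL and 13.5 and 80.9 for MVD, but 190 and 187 for HMGCS1.

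SQLE, which encodes squalene epoxidase, the step that commits squalene to the sterol path, was the synthesis enzyme with the lowest p between the grafts. The gene lies on chromosome 4, 14669789 to 14700152, in the RefSeq table of the build Sscrofa11.1. It stood at 29.5, 63.1, 79.1 and 39.4 CPM in FO 1 to FO 4 and at 138, 178, 154 and 245 CPM in GF 1 to GF 4. Every GF library was above every FO library, and the control libraries, at 201 CPM each, lay among the GF values. The log2 fold change of GF over FO was 1.76 ± 0.33 (adjusted p = 0.00222), and without GF 3 and GF 4 it was 1.57 (adjusted p = 0.00375). Against control testis SQLE was lower in FO (-1.93 ± 0.35, adjusted p = 0.00192), and in GF the difference was -0.17 ± 0.35 and did not pass (adjusted p = 0.752).

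NSDHL encodes the dehydrogenase that works with MSMO1 and HSD17B7 to strip methyl groups from the sterol ring, and it lies on chromosome X, 123906130 to 123921935. Its level was 22.3, 39.6, 49.5 and 28.8 CPM in FO and 78.7, 76.5, 251 and 164 CPM in GF, against 44.5 and 45.8 CPM in control testis. All GF libraries exceeded all others, and GF 3 and GF 4 were the highest. The gene rose in GF over FO by 2.03 ± 0.41 (adjusted p = 0.00374) and over control by 1.65 ± 0.49 (adjusted p = 0.0241) on the log2 scale. Without GF 3 and GF 4 these values were 1.13 (adjusted p = 0.00479) and 0.77 (adjusted p = 0.0482). The difference from control did not pass without control 1 or control 2 (adjusted p = 0.163 and 0.166). With the replicate number as a block it was 1.06 (adjusted p = 0.0523). NSDHL was the one synthesis enzyme of the 17 called above control testis in either graft.

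MVD, which makes isopentenyl diphosphate in the last of the mevalonate steps, lies on chromosome 6, 1008100 to 1014303. It measured 9.76, 15.9, 14.5 and 13.8 CPM in FO and 29.6, 24.4, 133 and 137 CPM in GF. Again each GF library was above each FO library, but GF 3 and GF 4 were several times above GF 1 and GF 2. The difference was 2.59 ± 0.55 (adjusted p = 0.0046), and it was 0.98 (adjusted p = 0.012) without GF 3 and GF 4. Control testis had 40.2 and 54.8 CPM, between the 2 pairs of GF libraries. GF minus control was 0.76 ± 0.60 over the 4 GF libraries (adjusted p = 0.376) and -0.83 (adjusted p = 0.0278) without GF 3 and GF 4, a change of sign.

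DHCR7, the reductase of the final step of one branch of the pathway, lies on chromosome 2, 2377352 to 2391846. The values were 4.74, 2.83, 3.57 and 4.03 CPM in FO and 8.14, 8.12, 26.9 and 22.8 CPM in GF, and the groups did not overlap. The FO values rest on 13 to 19 counts. GF 3 and GF 4 were at the level of control testis (25.2 and 21.5 CPM), with GF 1 and GF 2 between that and FO. It rose in GF over FO by 2.12 ± 0.52 (adjusted p = 0.00929), and without GF 3 and GF 4 the difference was 1.09 and did not pass (adjusted p = 0.0593). MVK, mevalonate kinase, on chromosome 14, 41320790 to 41357437, had 9.48, 20.7, 25.8 and 18.0 CPM in FO and 24.2, 26.2, 63.9 and 50.5 CPM in GF. Its groups overlapped, and the call (1.15 ± 0.40, adjusted p = 0.0463) ended without FO 1, FO 2, FO 4, GF 3 or GF 4 (adjusted p = 0.123, 0.0844, 0.0972, 0.128 and 0.0843) and against a fold of 1.5 (0.133). Without GF 3 and GF 4 together the difference was 0.43 (adjusted p = 0.329). Without FO 1 and GF 3 together, MVK (adjusted p = 0.266), MVD (0.0561) and DHCR7 (0.0552) did not pass.

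**Figure D3:**
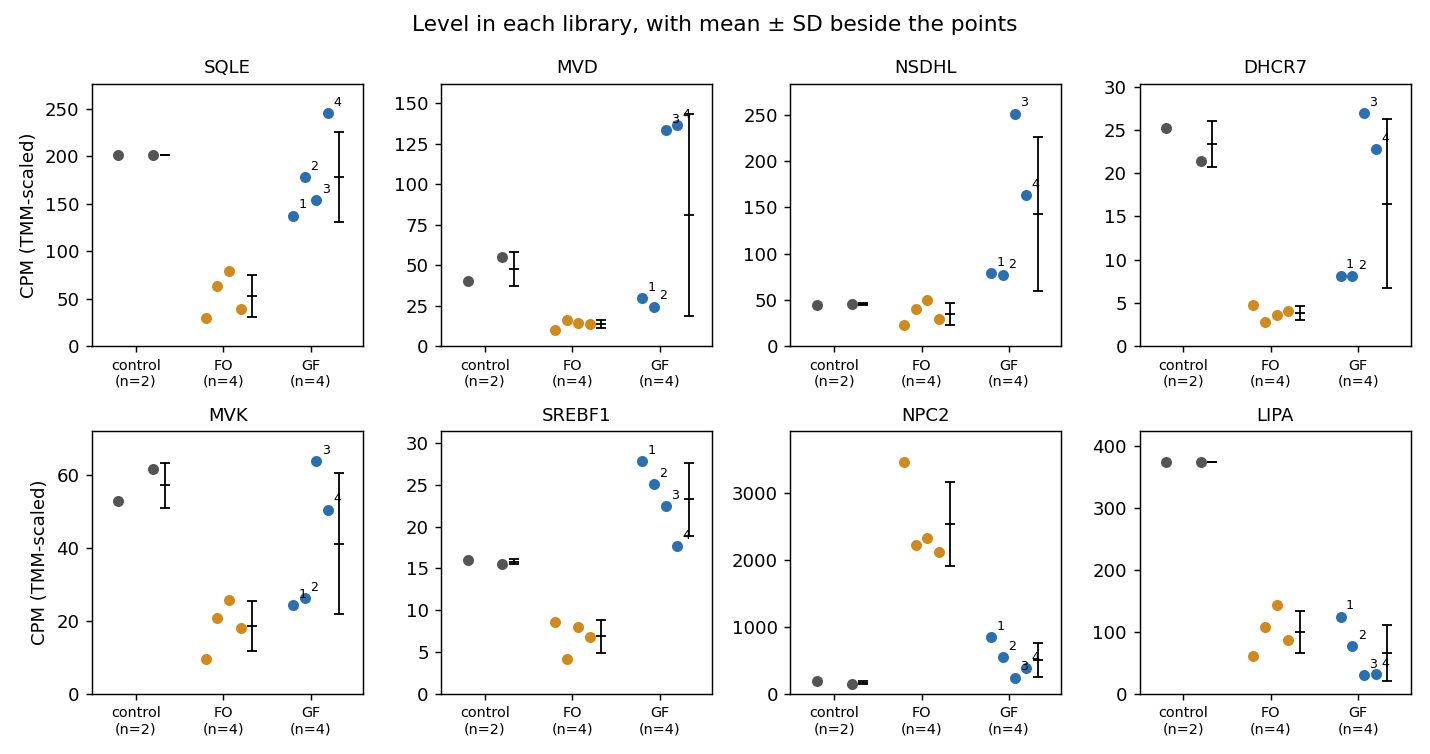
TMM-scaled CPM (y axis) of 8 genes in each library (points) of control testis, FO and GF grafts, with mean ± SD beside them, and with the GF libraries numbered. SQLE, MVD, NSDHL, DHCR7 and SREBF1 are higher in all 4 GF libraries than in any FO library, while NPC2 is highest in FO, at 2124 to 3463 CPM.

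The other 12 enzymes were not called between the grafts. None of the 17 was called lower in GF than in FO with edgeR or with DESeq2, and 0 were lower at an unadjusted p under 0.05 in either. HMGCS1, which makes the HMG-CoA that enters the mevalonate steps, was close to level in the grafts, at 190.4 ± 12.2 CPM in FO and 186.6 ± 29.7 CPM in GF (-0.03 ± 0.20, adjusted p = 0.925). FDFT1, squalene synthase, had 65.2 to 146.6 CPM in FO and 147.1 to 165 CPM in GF, so that the groups met without overlap, and did not pass (0.60 ± 0.25, adjusted p = 0.0873), although it did without FO 3 (0.84, adjusted p = 0.0351). CYP51, the demethylase of lanosterol, stood at 39.5 ± 5.68 CPM in FO and 59.7 ± 14.4 CPM in GF (0.60 ± 0.25, adjusted p = 0.0857). It passed without GF 3 and GF 4 (0.79, adjusted p = 0.0109), without GF 4 alone (0.73, adjusted p = 0.034) and with DESeq2 (adjusted p = 0.048). The remaining differences of the uncalled enzymes lay between -0.86 for HSD17B7 and 0.32 for ACAT2 on the log2 scale.

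In both grafts 6 synthesis enzymes were called below control testis, namely HMGCS1, ACAT2, FDPS, LSS, MSMO1 and EBP. CYP51, at 237 and 241 CPM in control testis, fell in both as well (-2.59 ± 0.26 in FO and -1.997 ± 0.26 in GF). MSMO1, the sterol methyl oxidase, measured 468 and 462 CPM in control testis, 58.8, 93.3, 98.8 and 53.6 CPM in FO and 120, 96.9, 32.1 and 39.1 CPM in GF. Both control libraries were several times above every graft, with a difference of -2.61 ± 0.44 for FO (adjusted p = 0.00125) and -2.68 ± 0.44 for GF (adjusted p = 9.06e-04). Without GF 3 and GF 4 the GF difference was -2.11 (adjusted p = 3.23e-05). FDPS, which builds farnesyl diphosphate, had 78.8 and 114 CPM in control testis, 8.36 to 22.4 CPM in FO and 13.1 to 25.2 CPM in GF, a difference of -2.51 in FO and -2.44 in GF. EBP, the sterol isomerase, had 96.5 and 124 CPM in control testis, 15.6 to 24.3 CPM in FO and 16.4 to 31.8 CPM in GF, a difference of -2.43 in FO and -2.38 in GF. HMGCS1, at 468 and 474 CPM in control testis, fell in both grafts (-1.31 in FO and -1.33 in GF), as did ACAT2, an acetoacetyl-CoA thiolase (-1.80 and -1.49). LSS, lanosterol synthase, had 80.6 and 103 CPM in control testis and 12.8 to 28.8 CPM in FO (-1.99 and, in GF, -2.13, or -1.52 without GF 3 and GF 4). For each of these 6 enzymes the FO and GF ranges overlapped, below both control libraries.

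A second group of synthesis enzymes was called below control testis in FO alone. MVK, MVD, FDFT1, SQLE and DHCR7 differed from control by -1.62, -1.81, -1.07, -1.93 and -2.62 in FO, while their GF differences were -0.48, 0.76, -0.47, -0.17 and -0.52 and did not pass. Without GF 3 and GF 4, MVK (-1.19, adjusted p = 0.0107), MVD (-0.83, adjusted p = 0.0278) and DHCR7 (-1.53, adjusted p = 0.00364) were called lower in GF as well. Of these 5, the difference between GF and FO itself was called for MVK, MVD, SQLE and DHCR7, as given above, and not for FDFT1. HSD17B7, another enzyme of methyl removal, was called lower in GF (-1.96 ± 0.57, adjusted p = 0.0235) and not in FO (-1.11 ± 0.57, adjusted p = 0.201, or 0.0026 without GF 3 and GF 4), and the difference between the grafts was not called (-0.86 ± 0.56, adjusted p = 0.269), although all GF libraries, at 8.79, 9.39, 0.69 and 7.26 CPM, lay below all FO libraries (10.8 to 13.7 CPM). The value in GF 3 rests on 2 counts, and without GF 3 and GF 4 the difference of GF from control was -1.52 (adjusted p = 0.00117). With the GF libraries out of the fit, HSD17B7 was called lower in FO than in control (-1.08, adjusted p = 0.00229). PMVK, GGPS1, TM7SF2 and SC5D were called in none of the 3 comparisons over all libraries, and PMVK was lower in GF than in control without GF 3 and GF 4 (-1.05, adjusted p = 0.0281). GGPS1, which makes the isoprenoid for protein prenylation and so leaves the sterol path, was 80.3 and 65.1 CPM in control testis, 62.3 to 71.9 CPM in FO and 56.6 to 127 CPM in GF, with all 3 groups overlapping.

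The comparisons with control rest on 2 control libraries. Leaving out control 1 or control 2 left 8 of the 16 genes called lower in FO (HMGCS1, ACAT2, FDPS, SQLE, MSMO1, EBP, DHCR7 and SOAT1), and 9 or 7 of the 10 called lower in GF. Calls that ended without either control library were those of MVK, MVD, FDFT1, LSS, SCAP, SREBF1, LIPA and APOE in FO (adjusted p = 0.062 to 0.253) and of HSD17B7 in GF (0.098 and 0.172). Those of ACAT2 and LSS in GF ended without control 2 (0.0816 and 0.0844), and that of MVD in FO also without any single FO library (0.0744 to 0.112). Markers of Leydig cells and of cell division also differed from control testis. Leydig cell genes, all 7 present, summed to 14093 and 16710 CPM in control testis, 490 to 3747 CPM in FO and 1430 to 3096 CPM in GF, with 6 of 7 called lower in FO and 5 of 7 in GF, and none at 0 throughout either graft. Between the grafts, 1 of the 7 Leydig genes was called higher in GF, 1 lower and 5 were not called. The 6 cell division genes summed to 690 and 779 CPM in control, 22.3 to 52.4 in FO and 155 to 414 in GF. All 6 were called lower in FO than in control and higher in GF than in FO. Against control, 3 of the 6 were called lower in GF and 3 were not called. The part of either in the enzyme levels was not tested.

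**Figure D4:**
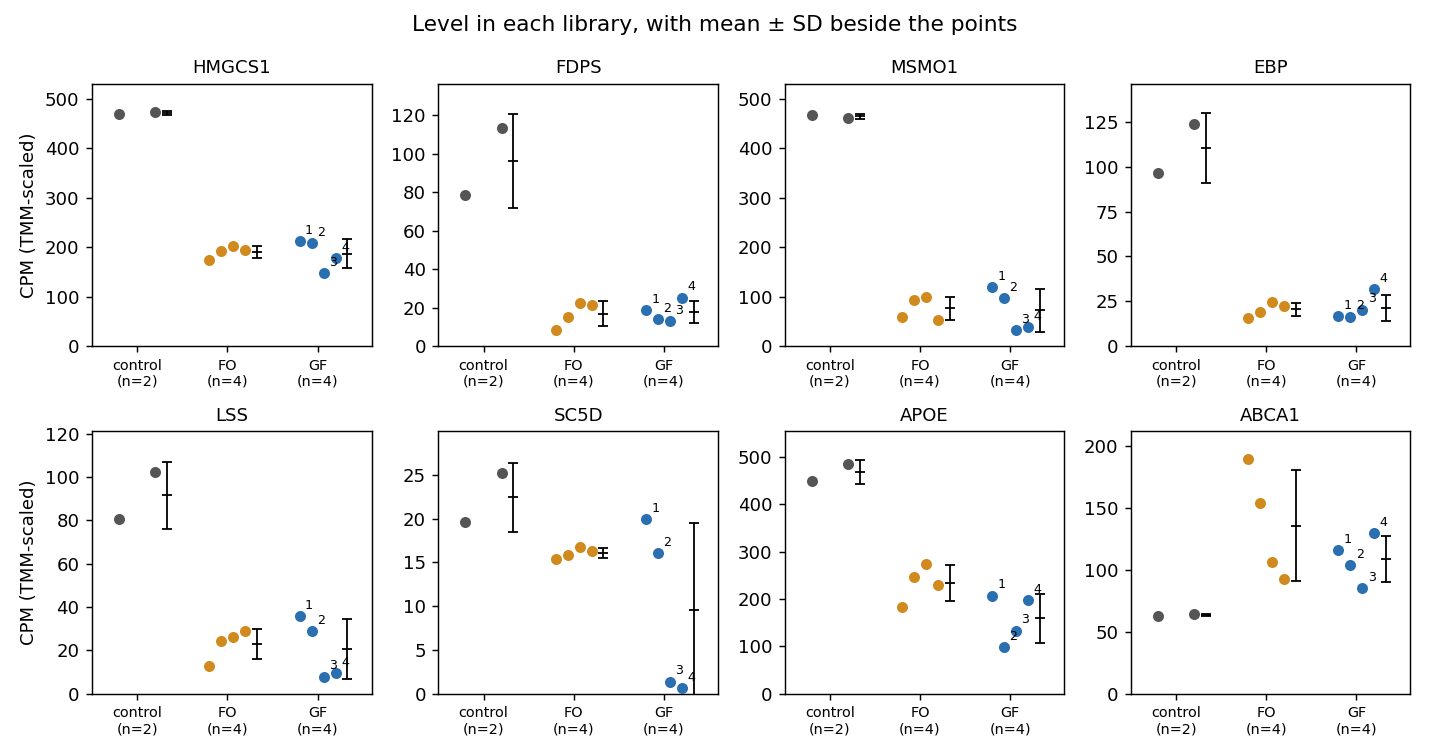
TMM-scaled CPM (y axis) of 8 genes in each library (points), with mean ± SD beside them (the SD bar of SC5D in GF is cut at 0), and with the GF libraries numbered. HMGCS1, FDPS, MSMO1, EBP, LSS and APOE are higher in both control libraries than in all grafts, SC5D is at 1.38 and 0.691 CPM in GF 3 and GF 4 alone, and ABCA1 is lowest in control testis.

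The GF libraries fell into 2 pairs for part of the pathway, as the labels do not. Of the 29 genes, 9 were higher in both GF 3 and GF 4 than in both GF 1 and GF 2, 10 were lower in both and 10 were neither. In the 13782 genes tested between the grafts, 25.1% were higher in both and 33.4% lower in both, beside 31.0% and 34.5% of the 29, so the split was about as common among the other genes. SC5D, the desaturase that sets a double bond of the sterol ring, on chromosome 9, 48357115 to 48372391, had 93 and 89 counts in GF 1 and GF 2 and 4 and 2 counts in GF 3 and GF 4. That is 19.9 and 16.1 CPM against 1.38 and 0.691 CPM, while FO held to 15.3 to 16.8 CPM. LSS measured 35.8, 28.9, 7.94 and 9.68 CPM in GF 1 to GF 4, and INSIG1 32.8, 28.7, 7.25 and 3.11 CPM. LSS, MSMO1, HSD17B7, SC5D, INSIG1, NPC2 and LIPA were lower in both GF 3 and GF 4 than in any FO library, and of these HSD17B7 and NPC2 were so in GF 1 and GF 2 too. LSS and INSIG1 were instead above all FO libraries in GF 1 and GF 2, where FO reached 28.8 and 26.2 CPM, LSS in GF 2 only just.

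The opposite held for MVD, DHCR7, NSDHL and MVK, whose mean in GF 3 and GF 4 was 5.00, 3.06, 2.67 and 2.27 times that in GF 1 and GF 2. PMVK, phosphomevalonate kinase, was 2.10 times higher. Within methyl removal, NSDHL was therefore high in the same 2 libraries in which MSMO1 was low, by 3.05 times. The mean of HSD17B7 was 2.29 times lower there, mostly through GF 3 (0.69 CPM, from 2 counts). In GF 4 it had 7.26 CPM, against 8.79 and 9.39 CPM in GF 1 and GF 2. SQLE, FDFT1 and FDPS showed neither order, with pair means within 1.26, 1.00 and 1.17 times of each other. No test was made between the pairs, which were set apart after the libraries had been seen.

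**Figure D5:**
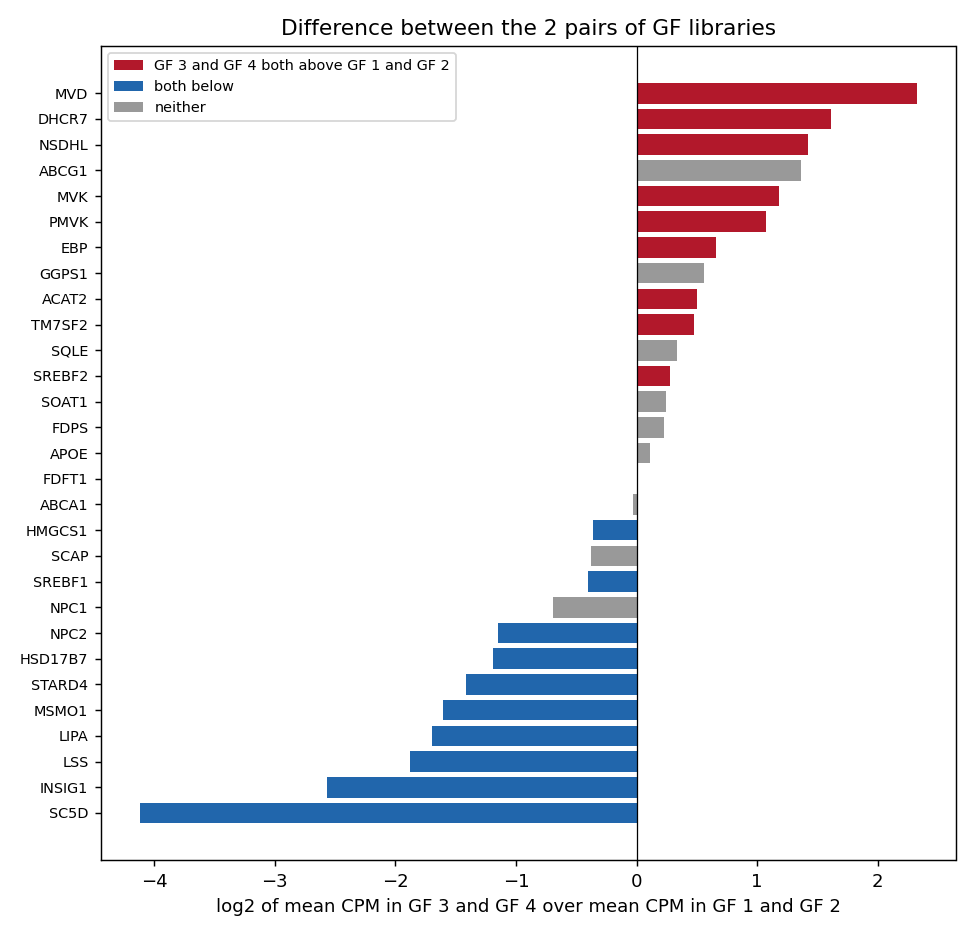
Log2 ratio (x axis) of the mean CPM of GF 3 and GF 4 to the mean CPM of GF 1 and GF 2 for each of the 29 genes (y axis). Red bars are genes with both libraries of the first pair above both of the second, blue bars with both below and grey bars with neither, and the range runs from -4.12 for SC5D to 2.32 for MVD.

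Among the genes of SREBP control, SREBF1 was called between the grafts. It encodes SREBP1, the relative of SREBP2 that mainly drives fatty acid genes, and lies on chromosome 12, 60733967 to 60750951. It had 8.64, 4.13, 7.97 and 6.78 CPM in FO, 27.9, 25.1, 22.4 and 17.6 CPM in GF, and 16.0 and 15.6 CPM in control testis. The 3 groups did not overlap, with control between the grafts. The rise in GF over FO was 1.76 ± 0.35 (adjusted p = 0.00344), and without GF 3 and GF 4 it was 1.93 (adjusted p = 4.02e-04). FO was lower than control (-1.20 ± 0.38, adjusted p = 0.042), a call that ended without any single FO or control library (adjusted p = 0.0551 to 0.219). GF over control was 0.56 ± 0.39 and did not pass (adjusted p = 0.31). SREBF2, which encodes SREBP2 itself, did not pass in any comparison, at 138 and 164 CPM in control testis, 111 to 254 CPM in FO and 114 to 156 CPM in GF.

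SCAP measured 109 and 126 CPM in control testis, 40.4, 55.9, 62.1 and 50.6 CPM in FO and 100.3, 94.4, 49.0 and 100.6 CPM in GF. In GF 3 alone it lay within the FO range. The difference between the grafts was 0.72 ± 0.27 (adjusted p = 0.0603), and it passed without GF 3 (0.90, adjusted p = 0.0113), without GF 3 and GF 4 (0.88, adjusted p = 0.00371) and with DESeq2 (adjusted p = 0.0294). SCAP was lower in FO than in control (-1.16 ± 0.30, adjusted p = 0.0152), a call lost without control 1 or control 2 (adjusted p = 0.0783 and 0.157). INSIG1 was 53.3 and 63.5 CPM in control testis and 12.0 to 26.2 CPM in FO. Its differences were -1.50 ± 0.62 for FO (adjusted p = 0.112) and -1.67 ± 0.62 for GF against control (adjusted p = 0.0631), and neither passed over all libraries. Without GF 3 and GF 4 both did, at -1.46 (adjusted p = 2.16e-04) and -0.94 (adjusted p = 0.0212). The GF difference also passed without GF 1 or GF 2 (0.0245 and 0.0432) and with DESeq2 (0.042). With the GF libraries out of the fit, the FO difference passed too (-1.45, adjusted p = 3.11e-04).

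NPC2, the small lysosomal protein that picks up cholesterol and passes it to NPC1, had the largest difference of the 29 genes between FO and control. The gene lies on chromosome 7, 97730532 to 97740087. It stood at 184 and 148 CPM in control testis, at 3463, 2229, 2325 and 2124 CPM in FO and at 848, 545, 240 and 388 CPM in GF. No groups overlapped, and GF lay between control and FO. NPC2 rose in FO over control by 3.93 ± 0.49 (adjusted p = 1.44e-04) and fell in GF against FO (-2.33 ± 0.35, adjusted p = 7.46e-04). GF over control was 1.61 ± 0.43 (adjusted p = 0.0147), which did not pass without control 1 (adjusted p = 0.0905), without control 2 (0.164) or with the FO libraries out of the fit (0.0587). Without GF 3 and GF 4, the 3 values were 3.96, -1.88 and 2.05, with all 3 called.

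NPC1, its partner in the lysosomal membrane, did not follow. It was 20.3 and 22.4 CPM in control testis, 14.6 to 20.9 CPM in FO and 4.15 to 19.5 CPM in GF, and no comparison passed. LIPA, the lysosomal acid lipase, went the other way from NPC2 against control. It had 373 and 374 CPM in control testis, 61.6, 107, 143 and 87.3 CPM in FO and 125, 77.4, 30.4 and 31.8 CPM in GF. LIPA fell in FO (-1.90 ± 0.47, adjusted p = 0.0126) and in GF (-2.49 ± 0.47, adjusted p = 0.00225), where the value was -1.90 (adjusted p = 6.42e-04) without GF 3 and GF 4. The FO call was lost without control 1 or control 2 (adjusted p = 0.0781 and 0.0875). Between the grafts the difference of -0.59 ± 0.43 did not pass (adjusted p = 0.314), and it did without GF 1 (-1.10, adjusted p = 0.0466). STARD4, a soluble sterol carrier, was near the limit of these libraries in the grafts, with 3 to 23 counts in FO and 4 to 30 in GF against 69 in each control library, and did not pass in any comparison (adjusted p = 0.0594 for FO and 0.0995 for GF against control). The FO value passed without GF 3 and GF 4 (-1.94, adjusted p = 0.00369) and with DESeq2. It also passed with all GF libraries out of the fit (-1.93, adjusted p = 0.00316).

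APOE, the lipoprotein component that takes up exported cholesterol, had 449 and 485 CPM in control testis, 184, 246, 274 and 229 CPM in FO and 207, 98.6, 133 and 197 CPM in GF. Control was above every graft, and the grafts overlapped. Against control, APOE fell in FO (-1.003 ± 0.29, adjusted p = 0.0282) and in GF (-1.55 ± 0.29, adjusted p = 0.00203). The FO call was lost without either control library or without FO 1, FO 2 or FO 4 (adjusted p = 0.0581 to 0.197). SOAT1, which esterifies cholesterol, had 58.2 and 51.8 CPM in control testis, 6.99 to 18.7 CPM in FO and 8.14 to 12.4 CPM in GF. It fell in FO (-2.10 ± 0.36, adjusted p = 0.00157) and in GF (-2.41 ± 0.37, adjusted p = 5.84e-04), and both calls held without any single library.

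ABCA1, the exporter of cholesterol to lipoproteins, was lowest in control testis, at 62.7 and 64.1 CPM, against 190, 154, 106 and 92.4 CPM in FO and 116, 104, 85.3 and 129 CPM in GF. It rose in FO by 1.10 ± 0.32 (adjusted p = 0.0278), a call lost without FO 1, FO 2 or either control library (adjusted p = 0.0689 to 0.203). The GF difference was 0.78 ± 0.31 (adjusted p = 0.0836) and passed without GF 3 and GF 4 (0.78, adjusted p = 0.035) and with the replicate number as a block (0.98, adjusted p = 0.0411). ABCG1 had 0 to 16 counts in GF and 11 to 20 in FO, and it did not pass over all libraries in any comparison. Without GF 4 it was lower in GF than in control (-2.31, adjusted p = 0.0457), and likewise without GF 3 and GF 4 (-1.88, adjusted p = 0.0355). In GF 3 it was at 0, where 3 counts would be 1.04 CPM. None of the 4 efflux and storage genes was called between the grafts with edgeR or DESeq2, and 0 had an unadjusted p under 0.05 in either.

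Macrophages, which carry much of the lysosomal and efflux machinery, have 12 marker genes in the table. They summed to 674 and 732 CPM in control testis, 185 to 369 CPM in FO and 57.4 to 93.9 CPM in GF, with no marker at 0 throughout a graft. Of those tested, 7 of 12 were called lower in FO and 11 of 12 in GF against control, and 6 of 7 lower in GF than in FO. APOE, LIPA and SOAT1 were also called lower in both grafts than in control, whereas NPC2 was higher in both and ABCA1 in FO. NPC1, STARD4 and ABCG1 were not called against control over all libraries. Between the grafts APOE (adjusted p = 0.136), LIPA (0.314) and the others were not called, except NPC2, which was lower in GF. Of 6 fibroblast markers, 5 were called lower and 1, LUM (named after its values were seen), higher in GF than in FO, and without FO 1 and GF 3 the counts were 2 lower and 0 higher, with sums of 3802 to 5906 CPM in FO, 1476 to 2663 CPM in GF and 4259 and 4278 CPM in control testis. The part of these cells in the levels was not tested.

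Germ cell markers were higher in GF than in FO, but those of early germ cells were not absent from FO. The 7 markers of early germ cells summed to 67.5 to 121 CPM in FO and 411 to 663 CPM in GF, with 6 of 7 called higher, and the 8 of meiosis and spermatids to 2.75 to 5.57 CPM and 366 to 2725 CPM, with 8 of 8 higher and ODF1 at 0 in all FO libraries. These sums, like SQLE, NSDHL, MVD, DHCR7, SREBF1 and the uncalled FDFT1, were higher in every GF library than in every FO library. How many of all tested genes were so was not counted. Within GF both sums were highest in GF 3, as were NSDHL and DHCR7. SQLE, MVD and FDFT1 were highest in GF 4 and SREBF1 in GF 1. The part of germ cells in those levels was not tested. In control testis the same 2 sums were 184 and 188 CPM and 11.8 and 13.8 CPM, with SQLE at 201 CPM. Sertoli cell markers summed to 4806 to 8731 CPM in FO and 14839 to 45584 CPM in GF, where CLU alone made up 95.7% of the sum. The control testis sums, 4852 and 5416 CPM, lay within the FO range. Of 8 tested, 4 were called higher and 1 lower in GF than in FO, with INHBB at 0 throughout both grafts.

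The wider pathway was read from 6 further lists, beside the 17.6% higher and 13.0% lower among all genes tested between GF and FO. Of 8 tested fatty acid synthesis genes, 2 rose in GF over FO, which with so few genes is near the share of all genes. The other lists are similarly small. FASN, fatty acid synthase, had a mean of 427 ± 201 CPM in GF, 119.7 ± 30.9 CPM in FO and 278 ± 6.19 CPM in control testis (GF over FO 1.84 ± 0.35, adjusted p = 0.00248). FADS2, a fatty acid desaturase, ran from 1.26 to 1.74 CPM in FO and from 4.15 to 18.0 CPM in GF (2.63 ± 0.61, adjusted p = 0.00699). A floor of 3 counts would be 0.629 to 0.836 CPM in the FO libraries, so FADS2 was near the limit there. Of 15 tested genes of uptake and sterol transport, 4 rose and 1 fell. Among the risers were the oxysterol-binding protein relative OSBPL2 (1.75 ± 0.35, adjusted p = 0.00329), the sterol transporter GRAMD1A (1.54 ± 0.34, adjusted p = 0.00587) and the lipoprotein receptor LRP8 (1.04 ± 0.24, adjusted p = 0.008). All 5 of these were also called without GF 3 and GF 4, with FASN then at 1.07 and FADS2 at 1.87. Without FO 1 and GF 3, 1 of the 8 fatty acid genes was called higher. In that setting 3 of the 15 uptake and transport genes were called higher and 1 lower.

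Of 10 tested oxysterol, LXR and lipoprotein genes, 2 rose and 1 fell. NR1H2, a sterol-sensing nuclear receptor, rose (1.07 ± 0.25, adjusted p = 0.00814), and without GF 3 and GF 4 by 0.73 (adjusted p = 0.015). The transporter ABCA2 also rose (1.37 ± 0.41, adjusted p = 0.026), but did not pass without GF 3 and GF 4 (0.61, adjusted p = 0.178). Without FO 1 and GF 3, 0 of the 10 genes were called higher, so neither passed, and 1 was lower. LCAT, which esterifies cholesterol on lipoproteins, fell (-2.35 ± 0.56, adjusted p = 0.00843). Of 7 genes of SREBP processing and sterol-regulated degradation, 1 fell, MYLIP, a ubiquitin ligase for lipoprotein receptors, which had a mean of 45.6 ± 10.9 CPM in FO against 11.2 ± 6.55 CPM in GF (-2.02 ± 0.42, adjusted p = 0.00426). Of 10 genes of the isoprenoid branch, 1 fell, RABGGTB, a prenyltransferase subunit (-1.09 ± 0.34, adjusted p = 0.03). Without FO 1 and GF 3, 0 of these 10 were called. LCAT, MYLIP and RABGGTB were also called lower without GF 3 and GF 4 (-2.94, -1.79 and -0.79). Of 5 other genes of sterol synthesis and its electron donors, 0 were called between the grafts with edgeR, 1 at an unadjusted p under 0.05 and 1 with DESeq2, while 4 were lower in FO and 3 in GF than in control testis.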

How the data were processed

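PolyA RNA of pig tissue was made into QuantSeq 3′ libraries after Trizol isolation, per the labels' protocols. The authors deposited a table of raw counts, 1 row per gene name, with library totals between 2915534 and 7013911. Per the submitters' processing notes, DESeq2 1.42.0 and the build Sscrofa11.1 were used, with no role stated. Details of alignment, counting and strand were not given in the sources used here. Overlapping and antisense genes are therefore uncertain. Groups were taken from the titles, and columns were matched to titles by letters and number, with F taken as FO. The 32 genes, the other lists and the alternatives were chosen with earlier results of these data known. Any of the 32 could be named, and of each other list at most 3 called genes with the lowest p between GF and FO.

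Genes were kept with filterByExpr (minimum count 10), scaled with TMM and tested over the whole table by the robust quasi-likelihood F test of edgeR 4.0.16 under R 4.3.3, with Benjamini-Hochberg adjustment and a threshold of 0.05. GF against FO used 8 libraries, and each comparison with control all 10. The spread of the graft group outside a comparison with control therefore enters its SE and p. The SE is the log2 fold change divided by the square root of F. All pairs of replicates differed by more than sampling noise. The method was tested on simulated counts. Gene positions are from the RefSeq table of Sscrofa11.1. Floors of 3 counts cover counting error only. Alternatives were DESeq2, RLE and total-count scaling, a test against a fold of 1.5, a block for the replicate number, no filter on counts, another choice of libraries to fit, no robust estimation, and leaving out libraries.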

Additional observations from a re-analysis of the deposited data

Results flagged for a closer look

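In groups of 4 libraries, the highest or lowest value was marked where its gap to the nearest other relative to the range exceeded Dixon's 95% critical value, which chance does in about 1 of 20 groups. Of 58 groups, 4 were marked. For GGPS1, GF 4 held 127 CPM while GF 1 to GF 3 held 56.6 to 68.4 CPM. SCAP was at 49.0 CPM in GF 3 against 94.4 to 100.6 CPM. NPC1 was at 4.15 CPM in GF 4 against 17.4 to 19.5 CPM. For NPC2, FO 1 held 3463 CPM while FO 2 to FO 4 held 2124 to 2325 CPM.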

How the results depend on the processing

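Against a fold of 1.5, 2456 genes were called between GF and FO, 2658 between GF and control (1 of the 29 higher) and 1833 between FO and control (1 higher and 10 lower of the 29). Without FO 1 and GF 3, 2312 genes were called between GF and FO. With only the 2 groups compared in the fit, edgeR called 2201 genes between GF and control, with 0 of the 29 higher (3 at an unadjusted p under 0.05, and 3 with DESeq2 on all libraries), and 6600 between FO and control. Without GF 3 and GF 4, 6510 genes were called between FO and control, 16 of the 29 were lower in GF than in control, and MVD changed sign against control (-0.83). Leaving out 1 library gave 1 to 2 of the 29 lower in GF than in FO, and 2902 to 4842 genes called. For GF against control it gave 1141 to 4729 genes and 0 to 2 higher (0 without control 1 or 2, where 2 had an unadjusted p under 0.05). For FO against control it gave 796 to 2263 genes, 1 to 2 higher and 8 to 14 lower. A lone control library is assumed to vary like the other groups. The cause was not tested. With total counts as scaling, the median of all genes between GF and FO moved to 0.13 from -0.02, and 7 of the 29 were higher and 1 lower.

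Replicate numbers are not stated to pair libraries, and same-numbered GF and FO libraries correlated at 0.0549 to 0.218. With the replicate number as a block, 4335 genes were called between GF and FO (6 of the 29 higher, 1 lower), 3282 between GF and control (2 higher, 9 lower) and 3219 between FO and control (2 higher, 13 lower). It gave up LSS, SREBF1 and LIPA in FO and NSDHL and HSD17B7 in GF against control, where it added ABCA1. Some genes that were not called over all libraries changed sign under an alternative. These were 11, 2 and 5 cases for GF against FO, GF against control and FO against control. MVD in GF against control was also called under such an alternative (-0.83, adjusted p = 0.0278, without GF 3 and GF 4). Depth limits STARD4, ABCG1 and, in GF 3 and GF 4, SC5D, as well as HSD17B7 in GF 3 and DHCR7 in FO.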
